A study of Homo sapiens with 2 samples.

Results

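SR proteins are splicing regulators that carry at least 1 RNA recognition motif and a domain rich in arginine and serine, through which they recruit the splicing machinery to exons. Their kinases and phosphatases set where they reside and how active they are. Many SR genes hold a poison exon, a conserved segment whose inclusion brings an early stop codon and sends the mRNA to nonsense-mediated decay, so that SR proteins limit their own and each other's levels. RBFOX2 is another splicing regulator, which binds UGCAUG in pre-mRNA and in 3′ untranslated regions (3′UTRs).

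The 10 genes examined were SRSF1, SRSF2, SRSF3, SRSF4, SRSF5, SRSF6, SRSF7, SRSF9, SRSF10 and SRSF11. Their transcripts were found by giving each locus of the deposited isoform models the GENCODE gene with which it shared the most exonic sequence on the same strand (hg38). That rule found a locus for 9 of the 10 genes, among 12775 loci with a gene in the whole series. The locus that contains SRSF1 overlapped its exons by 3338 nt but an unnamed non-coding gene on the same strand by 5530 nt, so it was not a member by the rule. Values for SRSF1 are given apart, from listed positions inside the bounds of the gene. The 9 loci held 326 of 119827 isoform models and 129 of 213041 listed edit positions.

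Edits were measured in HEK293T cells, a human embryonic kidney line that the sample records call HEK293XT. After methanol fixation the cells received a purified protein in which APOBEC1, an enzyme that deaminates cytidine, is joined to a nanobody against rabbit IgG. In the RBFOX2 library (numbered replicate 2) a rabbit anti-RBFOX2 antibody brought the fusion to RBFOX2, and in the enzyme-only library (numbered replicate 1) no such antibody was added. There was 1 library per group, so each comparison is between 2 libraries rather than 2 conditions, no test was possible, and intervals are exact 95% binomial intervals that cover counting error only.

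The tables listed 121930 positions in 10199 genes for the RBFOX2 library and 103684 in 10182 genes for the enzyme-only library. For each position they gave the number of reads with C converted to U and the number of reads of the whole gene, so an edit fraction is converted reads over gene reads, and reads at the position itself are not given. Every listed fraction was above 0.2%, so in a gene with more reads a position needed more converted reads to be listed. Among the members with positions in both tables, gene reads ran from 1015 (SRSF4) to 3510 (SRSF9) in the RBFOX2 library and from 935 to 3082 for the same genes in the enzyme-only library. Together these genes had 1.14 times as many reads in the RBFOX2 library.

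The positions on which the results turn are shown with their sequence, read from hg38 on the strand of each gene, 5′ to 3′, with the edited cytosine in capitals. The first pair shows UGCAUG, also in capitals, beside an edited cytosine in SRSF11 (chr1:70251074-70251103, plus strand) and in SRSF1 (chr17:58004521-58004550, minus strand).
SRSF11, edited C at 70251089: agcUGCAUGcaucuaCagcaggcauggauu
SRSF1, edited C at 58004529: aucUGCAUGuccucugugugaCugauagag

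The next windows of 29 nt hold the positions of SRSF9 (chr12, minus strand) and SRSF7 (chr2, minus strand) with the most converted reads among those listed in the RBFOX2 library alone.
SRSF9, edited C at 120461953: gugcucagaaucuaCauuccagauugagg
SRSF9, edited C at 120461881: aagaaaaaaaacuaCauaauuucuaccag
SRSF7, edited C at 38745120: gaagcucucaaguuCacccuuuagggaaa

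The last windows hold positions with high fractions in both libraries, in SRSF3 (chr6, plus strand), SRSF5 (chr14, plus strand), SRSF2 (chr17, minus strand) and SRSF9, and a coding position of SRSF9 that was listed in both.
SRSF3, edited C at 36602411: guugaacaagcaguCuuuaaaaacugcug
SRSF5, edited C at 69771487: cuugcccugggggcCuuuuuuuaaaaaac
SRSF2, edited C at 76735030: ugucuaacuuuuuaCuuguuuaagcuuug
SRSF9, edited C at 120461743: uguggguugcucuaCuauggagaucaaca
SRSF9, coding, edited C at 120464120: cuccaugccuaggaCuuccuccgucaggc

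In all of these windows except that of SRSF5, which had C there, the base 5′ of the edited cytosine was A or U, the context that APOBEC1 is known to prefer.

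Across the members, the RBFOX2 library listed 90 positions with 666 converted reads in all, and the enzyme-only library listed 67 positions with 370 converted reads. Of these positions 28 were in both tables, which left 62 in the RBFOX2 library alone and 39 in the enzyme-only library alone. Scaled by the totals of unshared positions in the series (109357 and 91111), the log2 ratio was 0.40, with an interval of -0.20 to 1.02 that holds 0. The minimum of converted reads was higher in the RBFOX2 library for most of these genes, since that library had more reads. With the same minimum in both libraries the counts were 62 and 14, and the log2 ratio was 1.76 (0.95 to 2.75). Under that minimum the 787 deeply read genes of the series, with 500 or more reads in each library, had 7722 and 3798 positions. The 62 and 14 of the members are not quite the like counts, since 2 and 0 of them belonged to SRSF11. That gene is not among the deeply read genes, because its reads in the enzyme-only library are unknown. For the deeply read genes the plain ratio was 2.03, neither on a log2 scale nor scaled by library totals. It is therefore not to be set against 1.76. Divided by the ratio of gene reads it was 0.87 on a log2 scale, a measure not calculated for the members under this minimum. A fixed number of reads is in turn easier to reach in the library with more reads. The main ratio rested in part on SRSF4, since without this gene it was 0.70, with an interval of 0.04 to 1.41 that no longer holds 0. Adding the SRSF1 positions gave 65 and 44 unshared positions and a log2 ratio of 0.29.

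Under that same minimum, 6 of the 6 members with 500 or more reads in each library had more RBFOX2 than enzyme-only positions, and 0 had fewer. Of the 771 such genes in the series that kept a position, 70.7% had more and 19.3% had fewer. The direction of the members was therefore also that of most deeply read genes. Only SRSF2 reached 20 unshared positions, the number required for the ratio of a gene to be set against the series. The log2 ratio of SRSF2, -0.08, was in neither tail, where 16.8% of 3604 genes lay above 1 and 14.6% lay below -1. Ratios of other members below rest on fewer positions and have no such comparison.

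**Figure D1:**
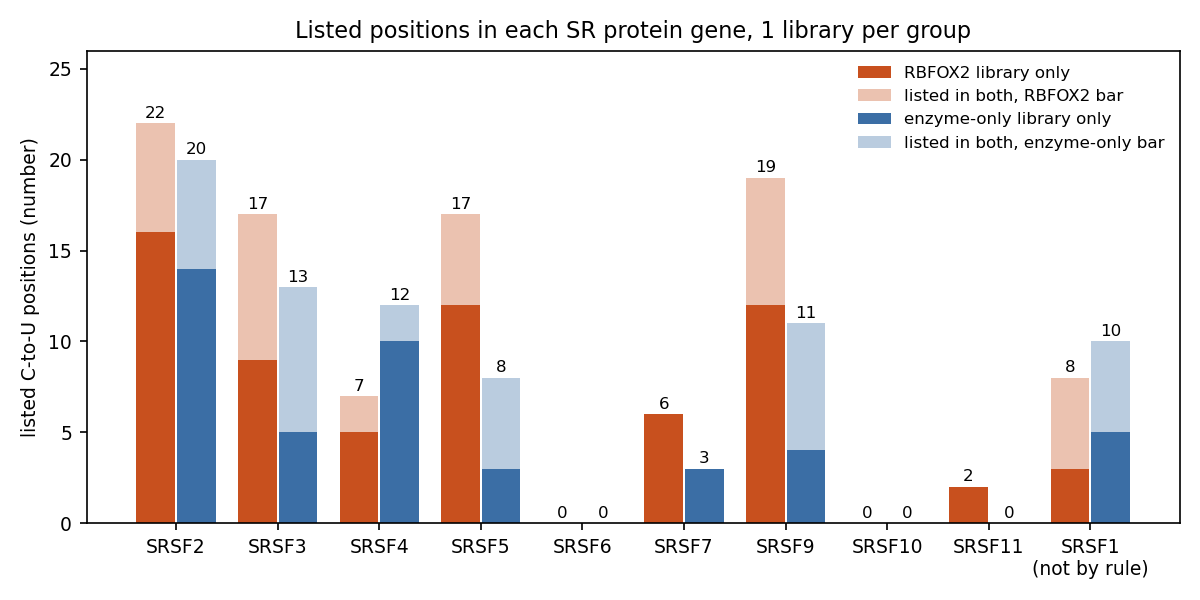
Number of listed C-to-U positions (vertical axis) in each SR protein gene, with the RBFOX2 library in orange and the enzyme-only library in blue; full colour marks positions listed in that library alone and pale colour those listed in both. SRSF9 and SRSF5 had 19 and 17 positions in the RBFOX2 library against 11 and 8, SRSF4 had 7 against 12, and SRSF6 and SRSF10 had 0 in both.

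SRSF9, an SR protein with more than 1 RNA recognition motif, showed the largest difference in converted reads. The RBFOX2 library listed 19 positions with 242 converted reads among 3510 gene reads, and the enzyme-only library listed 11 positions with 104 converted reads among 3082. Per 1000 gene reads this was 68.9 and 33.7 converted reads. In the 3′UTR, 348 nt long in the canonical transcript, 10 positions were listed in the RBFOX2 library alone, 1 in the enzyme-only library alone and 5 in both. The RBFOX2 library listed 15 of the 45 cytosines of that 3′UTR (33.3%, interval 20 to 49.0%), and the enzyme-only library listed 6 (13.3%, 5.05 to 26.8%).

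The positions at 120461953 and 120461881 each had 21 converted reads in the RBFOX2 library (0.598%, interval 0.371 to 0.913%). Neither was listed in the enzyme-only library, where a position with up to 6 converted reads of 3082 (0.195%, upper limit 0.423%) would have stayed unlisted. The intervals could therefore overlap. A neighbour in the same 3′UTR behaved otherwise, since 120461743 had 21 converted reads with the antibody and 20 without it (0.598 and 0.649%). At 120461724 the numbers were 18 and 11. Among positions listed in the enzyme-only library alone, 120461730 had the most converted reads, with 9. The log2 ratio of the 12 and 4 unshared positions of SRSF9 was 1.21 (-0.40 to 3.41).

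SRSF5, which like SRSF9 has more than 1 RNA recognition motif, had 17 positions with 74 converted reads among 1169 gene reads in the RBFOX2 library. The enzyme-only library listed 8 positions with 31 converted reads among 1018. The minimum was 3 converted reads in both libraries, so for this gene a common minimum left the counts unchanged. With 1169 against 1018 gene reads, 3 converted reads were still easier to reach in the RBFOX2 library. The 12 positions listed in the RBFOX2 library alone had 3 to 5 converted reads each, and 5 of them lay in the 3′UTR, 4 in coding sequence and 3 in sequence that the canonical transcript splices out. The enzyme-only library had 3 of its own, each with 3 converted reads. The log2 ratio was 1.57, the highest of the members with positions in both tables, with an interval of -0.15 to 4.20. The RBFOX2-only position with the most reads was 69771542, with 5, and 69768811 stood for the enzyme-only library, with 3.

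SRSF2, an SR protein that stays in the nucleus, had 22 positions with 125 converted reads among 1564 gene reads with the antibody, and 20 positions with 81 converted reads among 1469 without it. The unshared positions numbered 16 and 14. The enzyme-only library needed only 3 converted reads where the RBFOX2 library needed 4, and 10 of its 14 unshared positions had exactly 3. With 4 required in both, the counts were 16 and 4 and the log2 ratio was 1.53 (0.02 to 3.69), in place of -0.08 (-1.20 to 1.07). The RBFOX2-only positions with the most reads, 76735041 and 76734998, each had 7, and the enzyme-only position with the most, 76735037, had 5.

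SRSF3, a small SR protein that also takes part in mRNA export, had 17 positions with 155 converted reads among 2278 gene reads in the RBFOX2 library and 13 with 111 among 1971 in the enzyme-only library. A single position, 36602411, supplied 55 and 52 of these reads. Without shared positions the counts were 9 and 5, and with 5 converted reads required in both they were 9 and 1. The unshared position with the most reads was 36602493 in the RBFOX2 library, with 8, and 36594430, in the 5′UTR, in the enzyme-only library, with 6.

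SRSF7, related to SRSF3 and also an export adaptor, had 6 positions with 39 converted reads among 2405 gene reads in the RBFOX2 library and 3 with 15 among 1985 in the enzyme-only library. None was shared. The position at 38745120 in the 3′UTR had 11 converted reads (0.457%, 0.229 to 0.817%) in the RBFOX2 library, and was not listed in the enzyme-only library, where at most 3 reads (0.151%, upper limit 0.441%) were possible. In the enzyme-only library the position with the most was 38745182, in coding sequence, with 7.

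SRSF4 went the other way. It had 7 positions with 21 converted reads among 1015 gene reads in the RBFOX2 library and 12 with 28 among 935 in the enzyme-only library, and its log2 ratio was -1.20 (-3.16 to 0.42). The enzyme-only library needed 2 converted reads where the other needed 3, and 7 of its 10 unshared positions had exactly 2. With 3 required in both, 5 and 3 were left and the log2 ratio turned to 0.31 (-1.97 to 3.08). The enzyme-only position with the most reads was 29147881, with 4, and the 5 RBFOX2-only positions had 3 each.

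SRSF11, an SR-related nuclear protein, was listed only in the RBFOX2 library, with 2 positions and 10 converted reads among 1647 gene reads. Both lay in the 3′UTR. Its reads in the enzyme-only library are unknown, since a gene without a listed position has no row. SRSF6 and SRSF10, the latter known as a splicing repressor when dephosphorylated, had 2 and 22 isoform models and no listed position in either table, so their reads are unknown too. In the SRSF1 gene 8 positions with 49 converted reads among 1524 reads of the locus were listed in the RBFOX2 library, and 10 with 43 among 1313 in the enzyme-only library, with 5 shared.

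For all 60 positions listed in the RBFOX2 library alone in genes with reads in both tables, the interval of the edit fraction was set against what the other library could have missed. In 11 of them the interval lay above the largest unlisted fraction, 5 each in SRSF2 and SRSF9 and 1 in SRSF7. In 0 did it lie above the upper limit of that fraction. The 39 enzyme-only positions gave 0 and 0. The intervals of both libraries could thus overlap at each of these positions. Overlap of intervals is not a test of a difference, and none was made. The 11 and 0 were also counted against unlike limits. The largest unlisted fraction was 0.136% in the enzyme-only library and 0.192% in the RBFOX2 library for SRSF2. It was 0.151 and 0.166% for SRSF7 and 0.195 and 0.199% for SRSF9, but 0.196 and 0.171% for SRSF5. The share of such positions over the other genes of the series was not counted.

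**Figure D2:**
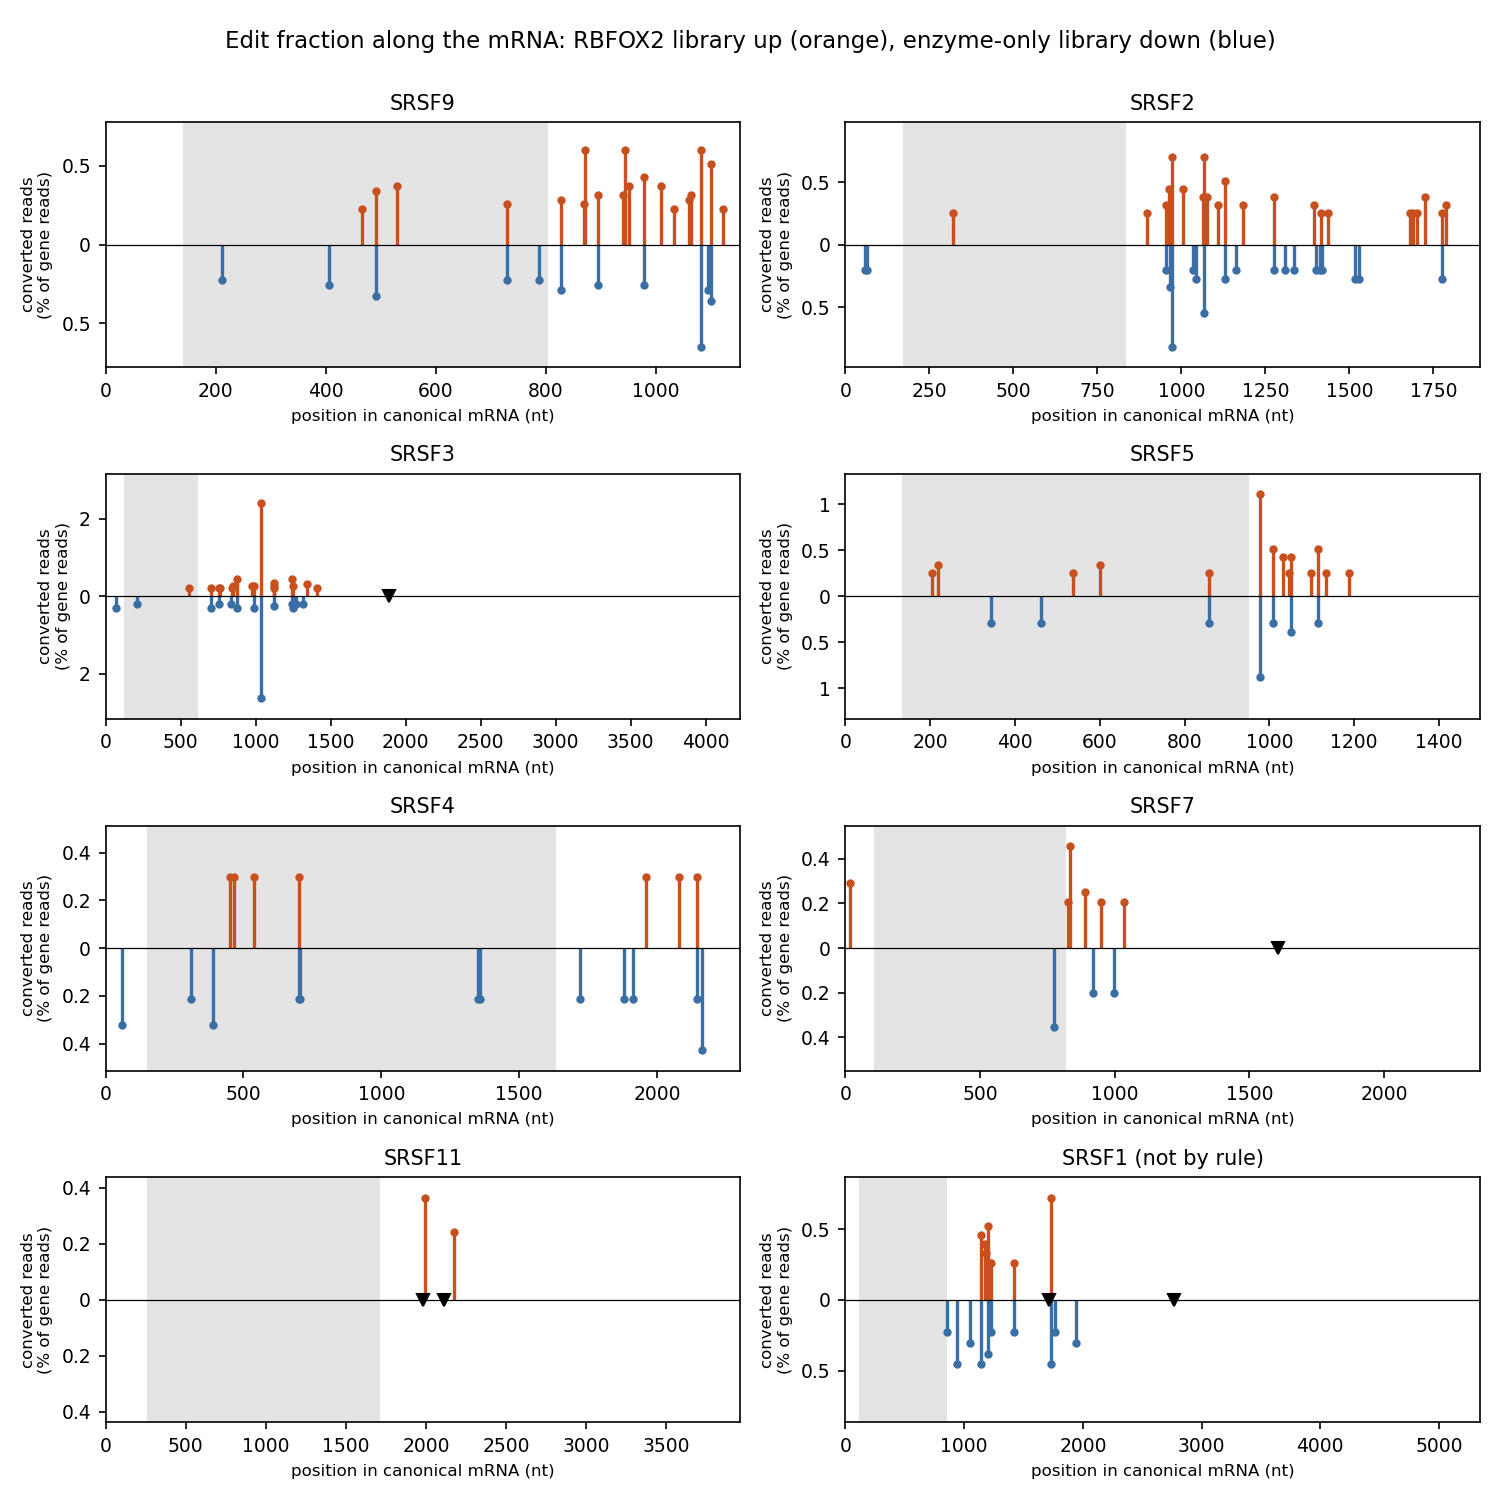
Converted reads as a percentage of gene reads (vertical axis, each panel on its own scale) at each listed position along the canonical mRNA (horizontal axis, nt), with the RBFOX2 library upward in orange and the enzyme-only library downward in blue. Grey marks coding sequence and triangles mark UGCAUG; positions outside the canonical mRNA are not drawn. Most positions lay 3′ of the coding sequence, the bar of SRSF3 at 2.41 and 2.64% was nearly the same in both libraries, and listed positions stood near a triangle in SRSF11 and SRSF1 alone.

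UGCAUG, the RBFOX2 motif, searched on the transcribed strand, occurred 13 times in the exons of the isoform models of 6 of the 9 members. SRSF2, SRSF5 and SRSF6 had none. Many copies lay in exons of few isoforms. The copies in the 3′UTR of SRSF3 (chr6:36603264-36603269) and of SRSF7 (chr2:38744345-38744350) were each in 9 isoforms, of 35 and 44, and lay 3′ of every listed position of these genes. The copies of SRSF9 lay in sequence that the canonical transcript splices out, and its 3′UTR held none.

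Of the 62 positions listed in the RBFOX2 library alone, 1 lay within 50 nt of UGCAUG (1.61%, interval 0.0408 to 8.66%). Among the exonic cytosines of the same genes, weighted by each gene's number of positions, 1.77% did. The enzyme-only library had 0 of 39 (upper limit 9.03%), where the same weighting gave 1.25%. At these numbers no difference from the cytosines of the genes was detectable in either library.

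The position near the motif was 70251089 of SRSF11, 7 nt 3′ of UGCAUG, with 6 converted reads of 1647 (0.364%, 0.134 to 0.791%). The other SRSF11 position, 70251265, was 57 nt 3′ of a second copy and had 4 (0.243%, 0.0662 to 0.621%). Both copies (chr1:70251077-70251082 and chr1:70251203-70251208) were in 36 of the 96 isoforms of the gene. SRSF11 had 5 copies in exons, the highest number among the members, with 75 of its 1779 exonic cytosines within 50 nt of one.

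In SRSF1 the position 13 nt 3′ of UGCAUG, 58004529, was listed in both libraries. It had 11 converted reads in the RBFOX2 library (0.722%, 0.361 to 1.29%) and 6 in the enzyme-only library (0.457%, 0.168 to 0.992%), intervals that overlap. A second position 46 nt 3′ of the same copy, 58004496, was listed in the enzyme-only library alone, with 3.

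Positions concentrated in 3′UTRs in both libraries. With coding annotation counted first, 49 of the 62 RBFOX2-only positions were in a 3′UTR (79.0%, interval 66.8 to 88.3%), and 23 of the 39 enzyme-only positions (59.0%, 42.1 to 74.4%). The exonic cytosines of the same genes were in a 3′UTR in 32.7% of cases for both weightings. Coding sequence held 11 (17.7%, 9.20 to 29.5%) and 12 (30.8%, 17.0 to 47.6%). The intervals of the libraries overlapped for both regions. Where 3′UTR annotation was counted before coding sequence, the shares in 3′UTRs were 91.9 and 79.5%.

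Per cytosine of the canonical transcripts, with shared positions included, the RBFOX2 library listed 71 of 1380 in 3′UTRs (5.14 per 100, 4.04 to 6.45) and 15 of 1464 in coding sequence (1.02, 0.575 to 1.68). The enzyme-only library listed 45 (3.26, 2.39 to 4.34) and 16 (1.09, 0.626 to 1.77). These denominators include the 331 3′UTR and 311 coding cytosines of SRSF11, whose reads in the enzyme-only library are unknown. The enzyme-only values would be higher without that gene. In each library the interval for 3′UTRs lay above that for coding sequence. By gene, SRSF9 had the highest share of 3′UTR cytosines listed and SRSF11 the lowest, with 2 of 331 in the RBFOX2 library. In SRSF3 the listed 3′UTR positions lay between positions 705 and 1407 of a 4228-nt mRNA, and in SRSF7 between 827 and 1036 of 2356 nt, so the distal parts of these long 3′UTRs had none. An edit fraction is over reads of the whole gene, so a position in few of its reads is harder to list. Many isoform models, 168 of 326, lacked the annotated start codon. Coverage along the mRNAs was not given, so neither the distal gaps nor the 3′UTR and coding values were corrected for it.

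The base 5′ of the edited cytosine was A or U in 59 of 62 RBFOX2-only positions (95.2%, 86.5 to 99.0%) and in 35 of 39 enzyme-only positions (89.7%, 75.8 to 97.1%). Among the exonic cytosines of the same genes 48.6 and 46.7% had A or U in that place. The preference was also seen within one region. Of the 92 positions of the canonical 3′UTRs in either library, 44 had A and 44 had U in this place, 3 had C and 1 had G, while 58.7% of the cytosines there had A or U. In coding sequence 16 of 27 positions had A (59.3%, 38.8 to 77.6%), against 16.9% of coding cytosines, and 9 had U.

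The edits in coding sequence would change an amino acid in 18 of 27 positions of either library (66.7%, 46.0 to 83.5%), against 56.7% of the coding cytosines of the 7 genes. Another 9 were synonymous, and 0 made a stop codon (upper limit 12.8%), which 5.74% of coding cytosines could have done. In the RBFOX2 library 9 of 15 changed an amino acid and in the enzyme-only library 12 of 16. Positions are counted from the first methionine of the canonical protein. L118F and S197F of SRSF9 were listed in both libraries, with 12 and 10 converted reads for the first and 9 and 7 for the second. R242C of SRSF5 had 3 in each. T102I, L106F and T131I of SRSF4 were in the RBFOX2 library alone, with 3 each, and S81F, S186F and S404F of the same protein were in the enzyme-only library alone, with 3, 2 and 2. S223F of SRSF7 was in the enzyme-only library alone, with 7.

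The 28 positions listed in both libraries lay in SRSF3 (8), SRSF9 (7), SRSF2 (6), SRSF5 (5) and SRSF4 (2). The edit fraction was higher in the RBFOX2 library at 18 of them, next to 55.8% of 1763 such positions in genes with 500 or more reads in each library. The ratio of the fractions had a median of 1.17 and ran from 0.721 to 2.16, and the median over all those positions of the series was 1.09. The intervals from both tables overlapped at all 28. The highest fraction was that of SRSF3 at 36602411, 2.41% (1.82 to 3.13%) in the RBFOX2 library and 2.64% (1.98 to 3.45%) in the enzyme-only library. Next came SRSF5 at 69771487, with 13 and 9 converted reads (1.11 and 0.884%), and SRSF2 at 76735030, with 11 and 12 (0.703 and 0.817%). The removal of annotated variants was not repeated here, so whether any position with a high fraction in both libraries is a variant was not tested.

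**Figure D3:**
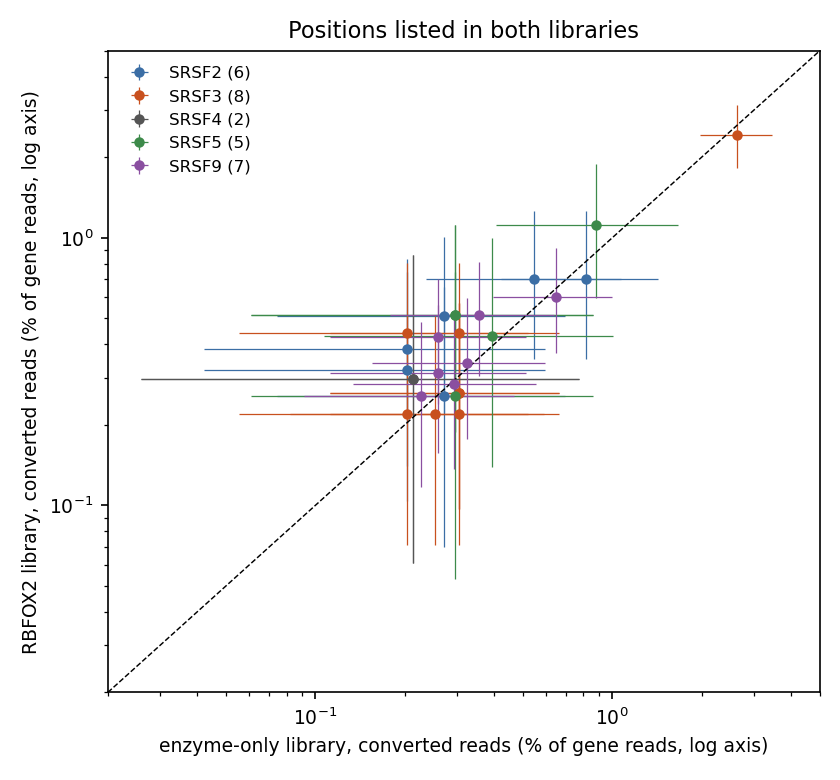
Edit fraction of the 28 positions listed in both libraries, in the enzyme-only library (horizontal) and the RBFOX2 library (vertical), as percentages of gene reads on log axes. Bars are exact 95% binomial intervals, the dashed line marks equal fractions, and all 28 pairs of intervals overlapped; the point at 2.64 and 2.41% is SRSF3.

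No position was listed in a poison exon that lay within an intron of the canonical transcript, but little other sequence from such introns had one either. Of the 326 isoforms, 168 lacked the annotated start codon and could not be classed, and 79 had a stop codon more than 50 nt before the last exon junction, the usual sign of a target of nonsense-mediated decay. SRSF5 had 24 of these, SRSF11 22, SRSF7 16, SRSF2 6, SRSF10 5, SRSF3 3, SRSF9 2 and SRSF4 1. Of the 79, 37 carried an extra exon within a canonical intron and 42 did not, among them 19 of SRSF5 and 12 of SRSF7. An extra exon of any of the 79 is called a poison exon here, whether or not the exon itself brings the stop codon. All 6 of the SRSF2 isoforms kept the canonical stop codon. Extra exons carried by isoforms with such a stop numbered 18 in 7 genes and held 874 distinct cytosines. Of these exons 16 lay within introns of the canonical transcript. In the RBFOX2 library 15 of them were in genes with reads in its table, and 0 of their 710 cytosines were listed (upper limit 0.518 per 100). In the enzyme-only library 8 were, and 0 of 522 cytosines were listed (upper limit 0.704). Other exonic sequence within canonical introns of the same genes had 3 of 3030 cytosines listed with the antibody (0.099 per 100, interval 0.0204 to 0.289) and 2 of 2187 without it (0.0914, 0.0111 to 0.33), so the poison exons could not be set apart from it. The 16 exons included the 456-nt exon of SRSF3 (chr6:36599821-36600276, 160 cytosines), the 449-nt exon of SRSF7 (chr2:38748898-38749346), the 104-nt exon of SRSF2 (chr17:76735772-76735875) and the 363-nt exon of SRSF10 (chr1:23977911-23978273), a gene whose reads are unknown. Reads per isoform are not given. A position in a poison exon needs as many converted reads as one in every transcript of the gene, 5 in SRSF3 for example, so editing of rare poison isoforms could not be seen at this depth.

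The 2 other extra exons were cut from the canonical last exon and held ordinary sequence of it. In the 98-nt exon of SRSF2 (chr17:76735061-76735158), 1 position was listed in the RBFOX2 library, 76735105, with 4 converted reads. It was in all 22 isoforms. In that of SRSF5 (chr14:69771194-69771544), 4 positions were listed with the antibody and 3 without it, and these were in 54 of the 65 isoforms. These counts therefore say nothing of the poison isoforms in particular.

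SRSF5 also had positions in intron sequence that many of its isoforms retain. Those at 69769459, 69770121 and 69770382 were listed in the RBFOX2 library, with 3, 3 and 4 converted reads, and 69770195 in the enzyme-only library, with 3. They were in 27 to 32 of the 65 isoforms, and 14 to 17 of these isoforms had the early stop codon. In SRSF2 the position 76735405, with 3 converted reads in the enzyme-only library, was in 4 of 22 isoforms.

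The editsC of an isoform is the percentage of its cytosines that were listed, here without shared positions. Since positions were assigned by gene, isoforms that share exons share positions and are not independent. RBFOX2 values were higher than enzyme-only values in all 65 isoforms of SRSF5 and all 44 of SRSF7, in 34 of 35 of SRSF3, 21 of 22 of SRSF2 and 15 of 17 of SRSF9. They were lower in 21 of 23 isoforms of SRSF4, the gene whose 5 and 10 unshared positions became 5 and 3 with the same minimum of converted reads in both libraries. The median editsC over isoforms was 3.96 and 1.32% in SRSF9, 3.19 and 1.31% in SRSF3, 2.60 and 0.728% in SRSF5, and 0.963 and 1.76% in SRSF4. Over all 108366 isoforms of the series with a position the medians were 2.07 and 1.68%. The series share of isoforms with the higher RBFOX2 value was not counted. Within a gene the isoform counts repeat the same unshared positions, 12 and 3 in SRSF5 and 6 and 3 in SRSF7.

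A line fitted to all 108366 isoforms with a position gave the value expected in the RBFOX2 library for each enzyme-only value. Genes of every depth entered this fit, although with more reads a position needed more converted reads. The shares below were therefore not matched for depth. The 36 SRSF11 isoforms entered with enzyme-only values of 0, although the reads of that gene in that library are unknown. Of the 242 member isoforms in this fit, 3 (1.24%) lay more than 1.5 SD above it, next to 6.48% in the series. None lay as far below it, next to 2.45%. The isoforms above it were 307 to 780 nt long. A 307-nt isoform of the SRSF9 3′ end with 1 exon had 10 of 43 cytosines listed with the antibody and 1 without it (23.3 and 2.33%, 6.72 SD above the fit). A 780-nt isoform of SRSF9 had 8 and 2% (1.72 SD), and a 310-nt isoform of SRSF5 had 3 of 45 cytosines and 0 (1.78 SD).

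Isoforms with the same junctions apart from a poison exon formed 92 pairs, which could also differ in their ends. In some pairs of SRSF2 and SRSF11 both isoforms had a stop codon over 50 nt before the last junction. There the exon was not shown to bring that stop. In 53 pairs both isoforms had the same numbers of positions, and each of the other 39 pairs differed in its ends. In the pairs closest in their ends, at most 3 nt apart, SRSF2, SRSF3, SRSF5 and SRSF7 had the same numbers with and without the exon and differed in cytosines. No position was listed in these exons and positions were assigned by gene, so the lower editsC values below reflect only the added cytosines. They say nothing of editing in the isoforms with the exon. In SRSF3, an isoform with the 456-nt exon and one without it had 9 and 5 positions each in the RBFOX2 and enzyme-only libraries. Their editsC was 1.76 and 0.977% with the exon, over 512 cytosines, and 2.56 and 1.42% without it, over 352. In SRSF7 both isoforms of the pair had 6 and 3 positions, and editsC fell from 3 and 1.5% to 1.94 and 0.971% with the 449-nt exon. The pair of SRSF5 that differed by a 532-nt exon had 8 and 2 positions each, with 3.24 and 0.81% without the exon and 2.22 and 0.556% with it. In SRSF2 the 104-nt exon changed little, with 2.54 and 2.06% without it and 2.47 and 2.01% with it. In SRSF11 the pairs closest in their ends had 0 positions in both isoforms. An SRSF11 isoform with the 117-nt exon (chr1:70231859-70231975) that reached the 3′UTR had 2 RBFOX2 positions, an editsC of 0.373%, and the isoforms without it had 1 or 2 (0.226 to 0.413%).

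**Figure D4:**
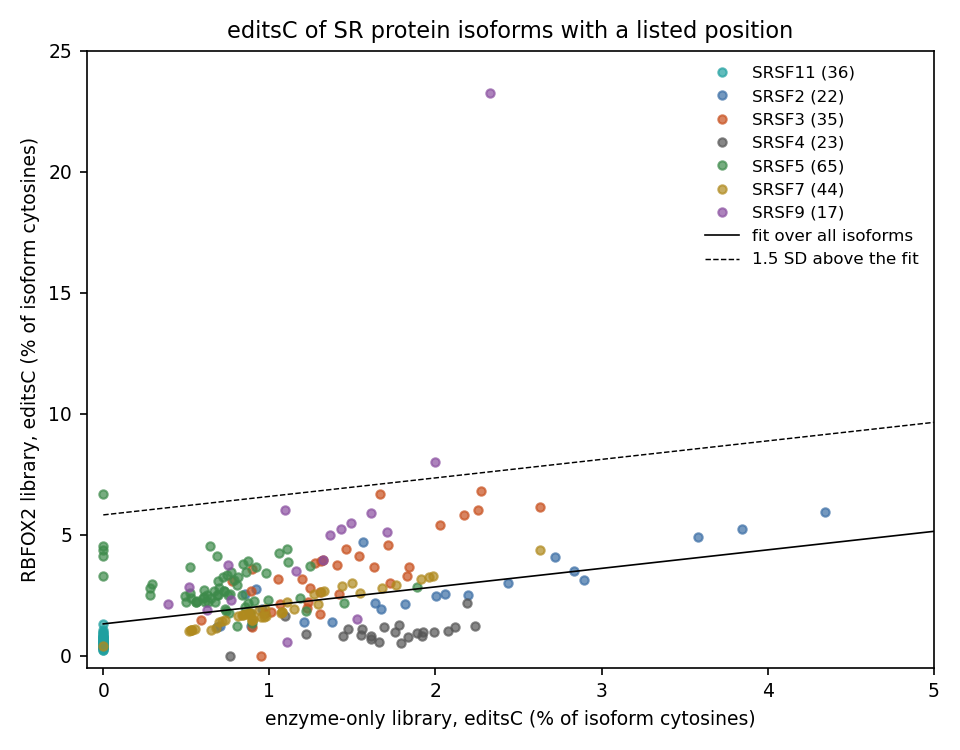
editsC of each member isoform with a listed position, in percent of its cytosines, in the enzyme-only library (horizontal) and the RBFOX2 library (vertical), with the number of isoforms per gene in brackets. The solid line is the fit over all 108366 isoforms and the dashed line lies 1.5 SD above it. The SRSF9 isoform at 23.3% stands apart. The SRSF4 isoforms lie under the solid line, as do those of SRSF11, many of SRSF2 and some of SRSF3. With the same minimum of converted reads SRSF4 had 5 and 3 positions, not 5 and 10.

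Other genes of the SR protein pathway were examined for comparison, as a list of 20 that held kinases, an importin, export and splicing partners and further SR proteins. Of these 18 had unshared positions and 8 loci reached 20. Among the 8, 1 lay above a log2 ratio of 1 and 3 lay below -1, where 16.8 and 14.6% of genes in the series did, and their median was 0.01. TRA2B, an SR-like activator, had 40 unshared positions with the antibody and 7 without it at 707 and 676 gene reads (log2 ratio 2.17). ACIN1, a protein of the exon junction, had 2 and 28 (-3.77) at 605 and 485 gene reads, where the RBFOX2 library needed 2 converted reads and the enzyme-only library 1. With the same minimum its counts were 2 and 3. SRRM2, a large scaffold of nuclear speckles, had 27 and 49 at the locus with more positions (-1.11), and SREK1, an SR-related regulator, had 11 and 19 (-1.03), with a minimum of 1 in both libraries for these genes. SRSF8, an SR protein close to SRSF2 in sequence, had 43 and 23 (0.63). The kinase CLK1, with 16 and 3, did not reach 20 positions.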

How the data were processed

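The authors deposited 1 table of edits per library, with a count of converted reads, a count of reads of the gene and a confidence score at each position, and isoform models of both libraries on hg38. The deposited edit fraction equals converted reads over gene reads. The score was not used. The labels name a PacBio Iso-Seq kit. The methods name another kit, alignment with pbmm2 and isoforms from IsoQuant, so the tables may come from another run. Full-length reads were aligned to hg38 and edits called with the authors' own code.

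Loci were named from GENCODE 44 by exonic overlap (bedtools 2.31.1), and regions came from its transcripts. Positions listed in both libraries were left out unless stated. Log2 ratios used a pseudocount of 0.5 and the library totals. Distances to UGCAUG were on the genome. A poison exon was an internal exon absent from the canonical transcript, in an isoform with a stop codon over 50 nt before its last junction. The exon itself need not have brought that stop codon. Unless a start codon of the annotation was present, an isoform was given no stop codon class. Intervals are Clopper-Pearson (scipy 1.17.1). The ratio calculation was tested on simulated counts. The members and lists were chosen with earlier results of these data known. Named were, per member, the unshared positions with the most converted reads in each library, those within 50 nt of UGCAUG, shared positions with the highest fraction, isoforms past 1.5 SD and pairs that differ by a poison exon. Amino acid sequences were not used here.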

Additional observations from a re-analysis of the deposited data

How the results depend on the processing

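Of 82 alternative values, 76 stayed within the interval of the main value or, for counts of isoforms, within 1.5 times it. Some of the 76 could not move. Every listed position of the members had at least 2 converted reads, so that requirement left the shares by motif, 3′UTR and 5′ base as they were. The log2 ratio over all members was 0.40. It was 1.76 with the same minimum of converted reads in both libraries, since the enzyme-only library then kept 14 of 39 positions, and -0.20 with at least 2 converted reads, where the members' counts stayed 62 and 39 and the library totals alone changed. It was 0.19 with shared positions kept, 0.39 with a pseudocount of 1, 0.42 scaled by gene reads and 0.29 with the locus that holds SRSF1, an alternative chosen after seeing the data. Leaving out 1 member gave 0.20 (without SRSF5) to 0.70 (without SRSF4, interval 0.04 to 1.41, which no longer holds 0). The same minimum moved SRSF2 from -0.08 to 1.53 and turned SRSF4 from -1.20 to 0.31. With 3′UTR annotation before coding sequence, 91.9% of RBFOX2 and 79.5% of enzyme-only positions were in 3′UTRs, not 79.0 and 59.0%. Counting poison-exon cytosines only in members with reads in that library, also chosen after seeing the data, gave 2 of 818 and 0 of 630 in place of 2 and 0 of 874. With a limit of 2 SD, 1 isoform in place of 3 lay above the fit, and 0 below. No paired analysis was possible because each group had a single library, with different replicate numbers. Depth limits every count here, since unlisted positions can hold up to 7 converted reads (SRSF9).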

Other observations

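In the printed windows, the letters UCUAC ended at the edited cytosine in SRSF11 and SRSF9, a pattern chosen after the sequences were seen. It was found at 4 of the 71 positions of the RBFOX2 library in canonical 3′UTRs of the members (5.63%, interval 1.56 to 13.8%), at 1 of the 45 of the enzyme-only library (2.22%, 0.0562 to 11.8%), and at 12 of the 1380 cytosines there (0.87%). The edited cytosines of both SRSF11 positions and of 120461953 and 120461743 in SRSF9 had it. All of these but 70251265 were in the printed windows from which the pattern was taken, and the 1 enzyme-only position was 120461743 again. The shares of positions are therefore raised by the choice of the pattern, and no enrichment over the cytosines can be read from them.

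A few positions inside the bounds of member genes were listed under other loci of the same strand, most with no isoform model and all with under 50 gene reads. Inside SRSF11 these loci had 3 positions with the antibody and 6 without it, and inside SRSF3 they had 4 and 5. They entered no comparison.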
